A study of Arabidopsis thaliana with 12 samples.

Results

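The genotype by lincomycin interaction in Arabidopsis seedlings is the lincomycin response of the gun1-101 mutant minus the lincomycin response of wild-type Col-0, gene by gene. It was computed from 12 of the 12 arrays of the study, in 4 groups of 3. All seedlings were 7 days old and were analysed whole. They had been stratified for 2 days, given 8 h of light, kept for 5 days in the dark and then for 2 days in continuous light. The groups were Col-0 without lincomycin, Col-0 sown on plates with 0.5 mM lincomycin, gun1-101 without lincomycin and gun1-101 sown on 0.5 mM lincomycin. The labels call the 3 arrays of a group biological replicates. The mutant was studied as 1 allele, gun1-101. The interaction was tested for 16550 genes, each read from 1 of the 38408 probe sets. A probe set was used where the platform annotation paired it with exactly 1 gene, and the one with the highest mean over the 12 arrays was kept for each gene. A positive interaction means that the mutant response lay above the wild-type response.

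GUN1 is a pentatricopeptide repeat protein of the chloroplast. Lincomycin blocks the ribosomes of plastids, and wild-type seedlings that cannot translate plastid mRNA repress nuclear genes for photosynthesis, a form of signalling from plastid to nucleus. Mutants of GUN1 are known for keeping such nuclear genes active when plastid translation is blocked. The GUN1 transcript is not analysed here, and the genotype labels were taken as given.

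Over the tested genes, array medians ranged from 6.59 to 6.70 (log2 RMA). Within groups, the mean correlation of an array with the other arrays of its group was lowest for Col-0 control replicate 1 (0.979), and the array closest to it was gun1-101 control replicate 1 (r = 0.992). Among arrays with lincomycin the lowest value was that of Col-0 lincomycin replicate 3 (0.986). Over 7083 probe sets that precede the first annotated one in the table, the array median was 5.37 in Col-0 control replicate 1 against 4.50 in the other 2 Col-0 controls. It was 4.72 in Col-0 lincomycin replicate 3 against 5.07 and 5.14 in the other 2 arrays of its group. These 2 arrays are named here the divergent Col-0 control and the divergent Col-0 lincomycin array, and a call that held without either of them held with each left out in turn. The median over the same 7083 probe sets was 4.88 to 5.10 in the gun1-101 controls and 4.54 to 4.81 in the gun1-101 lincomycin arrays. Apart from the 2 divergent arrays, it was thus higher with lincomycin in Col-0 and lower with lincomycin in gun1-101. A fit with this median as a covariate is given below. Genes for light-harvesting proteins, which mark green tissue, were at a list median of 10.57 to 11.08 in the 6 control arrays.

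The question of this comparison is which part of the lincomycin response differs between the wild type and the mutant. The interaction was called for 1153 genes, 6.97% of those tested, by limma with a Benjamini-Hochberg adjusted p under 0.05. For 664 genes (4.01%) the mutant response was the higher one, and for 489 (2.95%) it was the lower one. The interaction was at least 2-fold for 763 genes (4.61%). Called genes were sorted by whether the same fit called the lincomycin response within each genotype. A response called in Col-0 and not in gun1-101 is named lost, one called in gun1-101 and not in Col-0 gained, and one called in both in opposite directions reversed. A response that was called in both genotypes in 1 direction is named weakened or strengthened in the mutant. These names rest on a threshold in each genotype, while the interaction is the test of the difference itself.

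Across all tested genes, the lincomycin response was called in Col-0 for 14.3% (7.15% higher and 7.19% lower) and in gun1-101 for 20.4% (10.9% higher and 9.51% lower). Of the 1153 genes, 306 lost a fall, 159 lost a rise, 264 gained a fall and 237 gained a rise in gun1-101. A fall in Col-0 was reversed to a rise for 42 genes and a rise to a fall for 20. The response was weakened for 46 falls and 10 rises, and strengthened for 13 falls and 3 rises. The remaining 53 interaction genes were called within neither genotype. For the 306 lost falls the median response was -1.13 in Col-0 and 0.14 in gun1-101, with a median interaction of 1.33. The 264 gained falls had median responses of 0.18 in Col-0 and -0.85 in gun1-101, and the 237 gained rises had -0.20 and 1.03. Over all tested genes the median response was 0.02 in Col-0 and -0.06 in gun1-101, and the median interaction was -0.06.

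**Figure D1:**
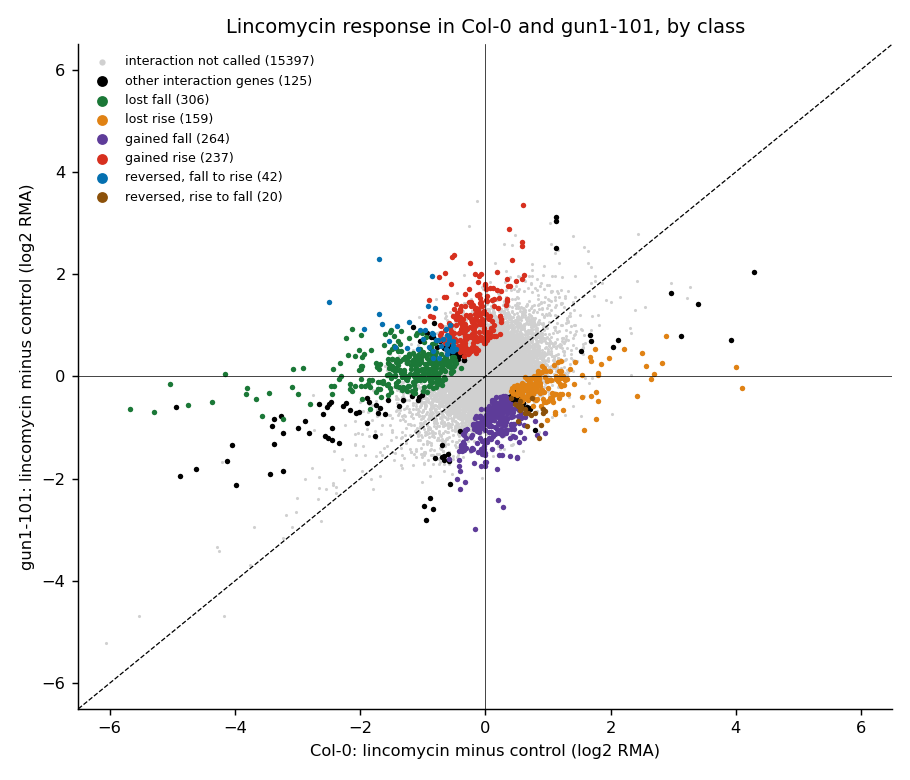
Each point is a gene, placed by its lincomycin response in Col-0 (horizontal axis) and in gun1-101 (vertical axis), both as lincomycin minus control in log2 RMA units (3 arrays per group), with colours for the response classes and a dashed line where both responses are equal. Lost falls (306 genes, green) spread along the left side of the horizontal axis, and gained rises (237, red) and gained falls (264, violet) spread along the vertical axis.

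The number of called genes changed by more than 1.5-fold without any 1 of the 12 arrays. It was 3876 without the divergent Col-0 control and 2986 without the divergent Col-0 lincomycin array. Without Col-0 control replicates 2 and 3 it was 435 and 476, and without Col-0 lincomycin replicates 1 and 2 it was 435 and 379. Without gun1-101 control replicates 1, 2 and 3 it was 567, 509 and 522, and without the corresponding gun1-101 lincomycin arrays 504, 704 and 424. All 12 of these fits called 345 genes (2.08%) that were also called with 12 arrays. None of the 1153 genes had the opposite sign in any of them. The genes called in all 12 fits made up 141 of the 306 lost falls, 34 of 159 lost rises, 48 of 264 gained falls and 27 of 237 gained rises. They also made up 36 of the 42 reversed falls and 17 of the 20 reversed rises.

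**Figure D2:**
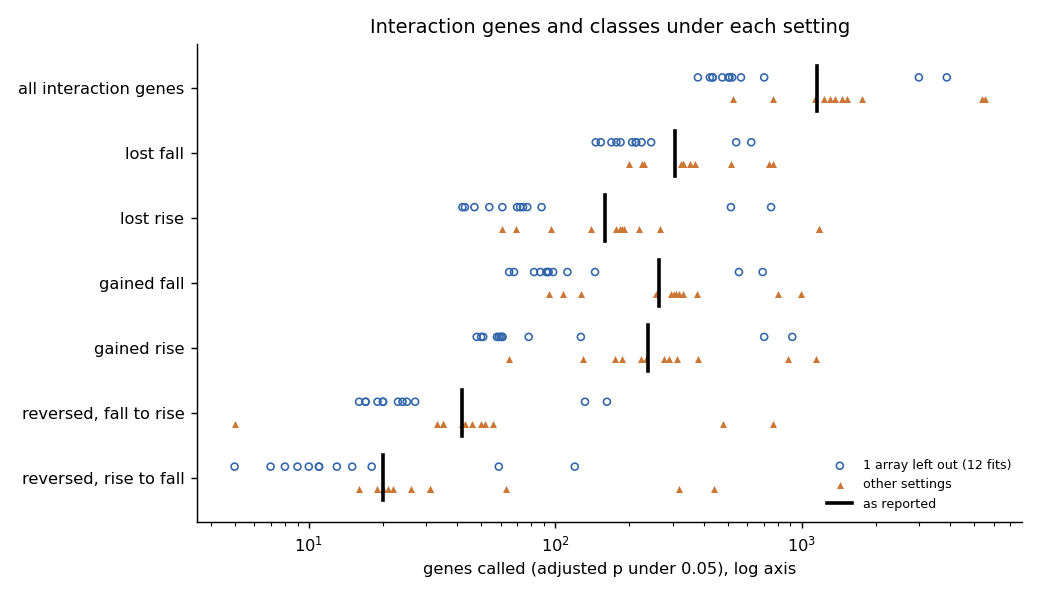
The horizontal axis gives the number of genes called (adjusted p under 0.05, log axis) for the whole interaction and for 6 response classes. Black bars are the counts reported with 12 arrays, open circles the 12 fits that leave out 1 array each, and triangles the other settings, except 1 count of 0 for reversals from rise to fall, which a log axis cannot show; for the whole interaction the circles run from 379 to 3876 around the bar at 1153.

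More genes were called between the genotypes on lincomycin than in the controls. Without lincomycin, 3 genes (0.0181%) were called between gun1-101 and Col-0 by limma, and with lincomycin 1585 (9.58%) were called. The 3 calls do not show that the controls were alike. The Col-0 controls included the divergent array, and the control difference of M17 was 2.09 without a call (limma adjusted p = 0.303). No count of this contrast without that array is given here. The genotype difference on lincomycin was larger than that in the controls for 288 of the 306 lost falls, against 57.2% of all tested genes. In 257 of the 306, the 3 Col-0 lincomycin arrays were the lowest of the 12, a pattern shown by 4.14% of all genes. The 3 gun1-101 lincomycin arrays were the lowest of the 12 for 190 of the 264 gained falls, against 6.16% of all genes, and the highest for 160 of the 237 gained rises, against 4.94%. The lost rises were more divided. The 3 Col-0 lincomycin arrays were the highest of the 12 for 88 of 159, against 3.14% of all genes, and in 50 of the 159 the genotype difference was larger in the controls than on lincomycin. The interaction used the same arrays as these counts, which therefore describe the called genes and are no separate support for them.

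The lost falls held nuclear genes of photosynthesis. Of 156 loci in 7 hand-written lists of nuclear genes for plastid functions, 33 were measured, and 24 of these 33 (72.7%) had a higher response in gun1-101 by limma. Over all tested genes that share was 4.01%. None had a lower one, and the interaction was above 0 for 33 of 33, against 7342 of all 16550 genes. The hand-written lists were chosen with earlier results of these data known, so these shares describe the lists and test nothing. The median response of the 33 genes was -1.11 in Col-0 and -0.10 in gun1-101, with a median interaction of 1.15. Of the 24 called genes 18 lost their fall, and the others were weakened or gained a rise. The count of 24 fell to between 16 and 20 without any 1 of the 10 arrays other than the divergent Col-0 arrays, with the lowest count without gun1-101 lincomycin replicate 3. Without those 2 arrays in turn it was 30 and 29. In a bulk sample, fewer cells of a type and less RNA per cell cannot be told apart.

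All 4 measured light-harvesting antenna genes had a higher response in the mutant, with a median interaction of 2.54. LHB1B2, listed as LHCB1.5 and encoding a light-harvesting protein of photosystem II, stood at 11.56, 11.77 and 11.76 in the Col-0 controls and at 7.02, 6.97 and 8.02 in Col-0 with lincomycin. In gun1-101 it stood at 11.31, 11.28 and 11.10 without and at 10.37, 10.95 and 10.86 with lincomycin. The 3 arrays of lincomycin-grown Col-0 lay below all 9 others, and the mutant on lincomycin lay below its own controls. The wild-type fall of 20.5-fold was 1.42-fold in gun1-101 (log2 -0.50, adjusted p = 0.173), and the interaction was 3.85 (SE 0.35, limma adjusted p = 0.000149). LHCB4.2 and LHCB4.1, which encode forms of the minor antenna protein CP29, both lost their fall. LHCB4.2 had an interaction of 3.57 (SE 0.31). LHCB4.1 had responses of -1.63 in Col-0 and -0.13 in gun1-101, a 2.83-fold difference (adjusted p = 0.00103). For LHCB4.3, the other CP29-type gene measured, the fall was weakened from -1.61 to -0.73 (interaction 0.88, limma adjusted p = 0.0249). That call ended without each of 7 arrays (adjusted p 0.0504 to 0.0731) and held without Col-0 control replicates 1 or 3, Col-0 lincomycin replicates 1 or 3, or gun1-101 control replicate 1.

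NdhU, a nuclear-encoded subunit of the NDH complex that carries electrons around photosystem I, had the largest interaction among the lost falls with a gene symbol. It stood at 9.97, 10.34 and 10.25 in the Col-0 controls, at 5.61, 5.93 and 6.52 in Col-0 with lincomycin, at 9.76, 9.81 and 9.77 in the gun1-101 controls and at 9.87, 9.71 and 9.93 in gun1-101 with lincomycin. The 2 mutant groups overlapped, and lincomycin-grown Col-0 lay below every other array. The 17.9-fold wild-type fall stood against a log2 response of 0.06 in gun1-101, and the interaction was 4.22 (SE 0.28, limma adjusted p = 1.08e-05). In the same list, the fall of ATPC1, the gamma subunit of the plastid ATP synthase, was weakened from -1.85 to -0.50 (interaction 1.36, adjusted p = 0.00124). All 4 measured nuclear photosystem subunits lost their fall. PSAE-1 of photosystem I had an interaction of 2.89 (SE 0.34), PSAN of photosystem I 1.22, PSBY of photosystem II 1.45 and PSBW of photosystem II 1.26.

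Of 7 measured tetrapyrrole genes 6 had a higher response in gun1-101. PORB, which reduces protochlorophyllide in the light, stood at 11.09, 11.21 and 11.18 in the Col-0 controls and at 7.85, 7.46 and 7.96 with lincomycin. In gun1-101 it stood at 10.88, 11.01 and 10.85 and at 10.02, 9.74 and 10.09. The 4 groups did not overlap, and the mutant on lincomycin lay between its own controls and lincomycin-grown Col-0. The fall was weakened from 10.6-fold to 1.95-fold, with an interaction of 2.44 (SE 0.21, limma adjusted p = 8.97e-05). HEME1 and HEME2, uroporphyrinogen decarboxylases, lost falls of -1.72 and -1.44, with interactions of 1.61 and 1.46. CHLM, the magnesium-protoporphyrin methyltransferase (0.88), and AT1G74470, listed as the geranylgeranyl reductase gene CHLP (0.73), were called too. HEMA2, a glutamyl-tRNA reductase, gained a rise of 1.09 against 0.11 in Col-0 (interaction 0.99, adjusted p = 0.034). The calls of CHLM, AT1G74470 and HEMA2 ended without 7, 6 and 9 of the 12 arrays (adjusted p 0.0504 to 0.0881), and all 3 held without either divergent Col-0 array. CHLM also held without gun1-101 control replicate 3 or gun1-101 lincomycin replicates 1 or 2. AT1G74470 also held without Col-0 control replicate 2, gun1-101 control replicate 2 or gun1-101 lincomycin replicates 1 or 2, and HEMA2 also without gun1-101 control replicate 3. GSA1 had an interaction of 0.49 (adjusted p = 0.138).

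All 3 measured Calvin cycle genes had a higher response in the mutant. The falls of the phosphoribulokinase gene PRK (from -2.82 to -1.10) and the sedoheptulose-bisphosphatase gene SBPASE (from -1.71 to -0.72) were weakened, with interactions of 1.72 and 0.99. The Rubisco activase gene RCA lost a fall of -0.88 (interaction 0.79, limma adjusted p = 0.0221), a call that ended without 6 of the 12 arrays (adjusted p 0.0502 to 0.0627). Of 5 photorespiration genes 2 were called, AT1G32470, listed as the glycine decarboxylase subunit GLDH3 (1.19), and the hydroxypyruvate reductase gene HPR (0.74). The call of HPR ended without 7 of the 12 arrays (adjusted p 0.0517 to 0.0686). Both calls held without either divergent Col-0 array and without gun1-101 lincomycin replicate 1. RCA also kept it without Col-0 control replicate 3, gun1-101 control replicate 3 or gun1-101 lincomycin replicate 2, and HPR without Col-0 control replicate 2 or Col-0 lincomycin replicate 2. Of 8 nuclear genes for plastid ribosomal proteins 3 were called, with 8 of 8 interactions above 0 and a median of 0.98. They were AT1G29070, listed as PRPL34 (1.22), AT3G54210, listed as PRPL17 (1.48), and AT1G64510, listed as PRPS6 (1.15). The last 2 were called only with all 12 arrays or without either divergent Col-0 array. Their adjusted p was 0.0747 to 0.124 without any 1 of the other 10.

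Other lost and weakened falls lay outside these lists. AT2G34620, of the mTERF family of organelle proteins, had the largest interaction of all tested genes. It stood at 9.42, 10.22 and 10.06 in the Col-0 controls, at 4.16, 3.49 and 5.02 in Col-0 with lincomycin, at 9.38, 9.45 and 9.22 in the gun1-101 controls and at 8.56, 8.59 and 9.01 with lincomycin. A 51.0-fold fall in Col-0 stood against 1.55-fold in the mutant (interaction 5.04, SE 0.46, limma adjusted p = 0.000138), and lincomycin-grown Col-0 lay below every other array. AT4G22513 had an interaction of 4.89 (SE 0.63), with Col-0 lincomycin arrays at 2.05 to 2.53 and all others at 5.88 or more. TRY, a small MYB-type repressor of trichome formation, lost a 7.50-fold fall (interaction 3.07, SE 0.45, adjusted p = 0.00303). Among weakened falls, AT1G21500 had responses of -4.94 in Col-0 and -0.60 in gun1-101 (interaction 4.35). ATSPS4F, a sucrose-phosphate synthase, had -3.37 and -1.33 (interaction 2.04, adjusted p = 0.00106). TAPX, the thylakoid ascorbate peroxidase, had -2.22 and -0.51 (interaction 1.71, adjusted p = 0.00114).

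**Figure D3:**
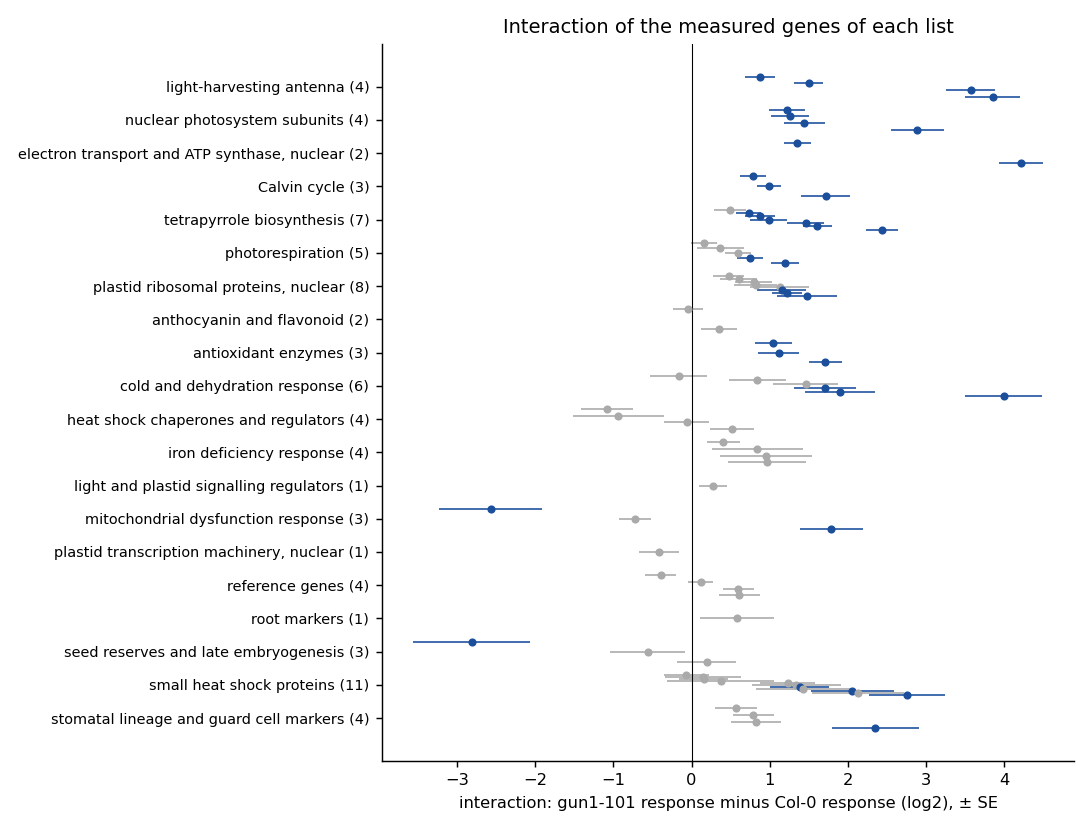
Points are the measured genes of each hand-written list, with the number measured in brackets, placed by their interaction (gun1-101 response minus Col-0 response, log2) with bars of 1 SE. Blue points passed limma's test over all genes and grey points did not; the 33 genes of the first 7 lists all lie above 0, and the widest spread to both sides is in the mitochondrial dysfunction list.

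Plastid-encoded genes moved the other way. The interaction was below 0 for all 63 measured plastid genes, and 22 of them (34.9%) had a lower response in gun1-101 by limma, while none had a higher one. Over all tested genes 2.95% were called lower, and 9208 of 16550 lay below 0. The median response was -0.18 in Col-0 and -0.72 in gun1-101, with a median interaction of -0.59. Of the 22 genes 19 gained a fall and 3 had a strengthened one. The count of 22 dropped to between 6 and 13 without any 1 of 9 arrays, with the lowest count without Col-0 lincomycin replicate 2. It was 38 without the divergent Col-0 control, 31 without the divergent lincomycin array of Col-0 and 23 without gun1-101 lincomycin replicate 2. The probe sets of plastid genes had a median signal of 11.9 over genes and arrays, near the highest signal of any tested gene (12.88). The 17 measured mitochondrion-encoded genes were also all below 0, with a median interaction of -0.41. None of the 17 was called by limma, with an unadjusted p under 0.05 for 7. Without the divergent Col-0 control 8 were called lower, and without the divergent Col-0 lincomycin array 3 were. The part of array-wide differences in organelle signals in these results was not tested. The median of the mitochondrial list was 11.51 in Col-0 control replicate 1 and 11.03 and 11.06 in the other Col-0 controls.

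The fall in the mutant was deepest for a few plastid transcripts. ndhJ, an NDH subunit gene, stood at 11.85, 11.34 and 11.39 in the Col-0 controls, at 10.57, 10.91 and 10.60 in Col-0 with lincomycin, at 11.53, 11.54 and 11.40 in the gun1-101 controls and at 8.73, 9.09 and 8.86 with lincomycin. The mutant on lincomycin lay below all other arrays. The response was -0.83 in Col-0 and -2.60 in gun1-101 (interaction -1.76, SE 0.23, limma adjusted p = 0.00144). petL, a small subunit of the cytochrome b6f complex, had a response of -0.33 in Col-0 and -2.06 in gun1-101 (interaction -1.73, adjusted p = 0.00349). rps14, a ribosomal protein gene, had -0.40 and -2.21 (interaction -1.80, adjusted p = 0.00144), and psbM, a small subunit of photosystem II, had -0.57 and -2.10 (interaction -1.53, adjusted p = 0.00231). These 4 genes and the ndh genes ndhF (-0.96) and ndhK (-1.04) were called in all 12 fits with 1 array left out.

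By function, the called plastid genes were spread over several complexes. Of 10 ndh genes 6 were called, with a median interaction of -0.68 and a range of -1.76 to -0.50. Of 13 psb genes for photosystem II 5 were called (median -0.64), of 6 pet genes 1 (median -0.55) and of 5 psa genes for photosystem I 1, psaJ (-1.07). The call of psaJ ended without Col-0 control replicates 2 or 3, Col-0 lincomycin replicate 2, gun1-101 control replicate 2 or gun1-101 lincomycin replicate 1 (adjusted p 0.062 to 0.0738). None of the 4 atp genes was called by limma (median -0.46), with an unadjusted p under 0.05 for 3 of them, and rbcL, the large Rubisco subunit, had an interaction of -0.42 (adjusted p = 0.142). Of the gene expression machinery, 3 of 7 rps genes, 1 of 6 rpl genes and 2 of 4 rpo genes were called. The rpo genes encode the plastid RNA polymerase, and rpoB and rpoC2 responded by 0.05 and 0.09 in Col-0 against -0.62 and -0.66 in gun1-101. Both of these calls held in 3 of the 12 fits, those without either divergent Col-0 array, and without gun1-101 lincomycin replicate 2. Their adjusted p was 0.0591 to 0.114 in the other 9. The interactions of psbA, for the D1 protein (-0.28, adjusted p = 0.246), and of psaB, for a core protein of photosystem I (-0.34, adjusted p = 0.227), did not pass the test.

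**Figure D4:**
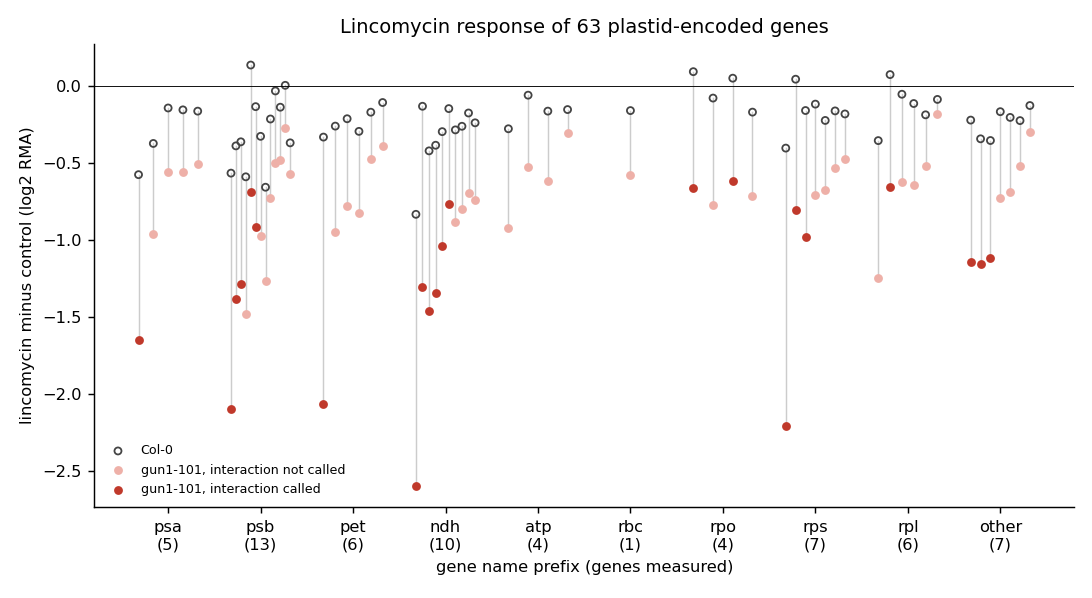
Each vertical line joins the lincomycin response (lincomycin minus control, log2 RMA) of 1 plastid-encoded gene in Col-0 (open circle) and in gun1-101 (filled circle, dark where limma called the interaction), grouped by gene name prefix. The filled circle lies below the open one for all 63 genes, with ndhJ, rps14, psbM and petL at responses of -2.60 to -2.06 in gun1-101.

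Nuclear genes also gained falls. AT4G36230 stood at 3.87, 3.76 and 3.92 in gun1-101 with lincomycin and at 6.09 or more on all 9 other arrays. Its response was -2.98 in gun1-101 and -0.17 in Col-0 (interaction -2.81, SE 0.41, limma adjusted p = 0.00327). AT3G04330 had a response of -2.55 in gun1-101 against 0.28 in Col-0 (interaction -2.83, adjusted p = 0.000271). SCPL15, a serine carboxypeptidase-like protein, fell 3.37-fold in gun1-101 and had a log2 response of 0.00 in Col-0 (interaction -1.75, adjusted p = 0.00349). NET1D, an actin-binding protein of the NETWORKED family, had -0.88 against 0.79 (interaction -1.67, adjusted p = 0.0247). This last call ended without 9 of the 12 arrays (adjusted p 0.0502 to 0.072) and held without either divergent Col-0 array, and without gun1-101 lincomycin replicate 2. AT3G20362 had the largest interaction among strengthened falls without a symbol, with -0.95 in Col-0 and -2.82 in gun1-101.

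Rises gained in the mutant included small heat shock and cold response genes. Of 11 measured small heat shock protein genes, which encode chaperones that hold unfolded proteins, 3 had a higher response in gun1-101 by limma, against 4.01% of all tested genes, and none a lower one. The median response of the 11 was 0.43 in Col-0 and 1.83 in gun1-101, with a median interaction of 1.34. AT1G53540, listed as HSP17.6C, stood at 5.23, 4.77 and 5.19 in the Col-0 controls, at 5.32, 5.84 and 5.81 in Col-0 with lincomycin, at 5.56, 6.22 and 5.90 in the gun1-101 controls and at 8.35, 10.05 and 9.35 with lincomycin. The mutant on lincomycin lay above all other arrays, with replicate 1 the lowest of its 3. The 10.2-fold rise in gun1-101 stood against 1.51-fold in Col-0 (interaction 2.76, SE 0.49, adjusted p = 0.00842). The list was not uniform. AT5G51440, listed as HSP23.5, rose by 1.68 in Col-0 and by 1.83 in gun1-101, with an interaction of 0.15 (adjusted p = 0.876), and AT5G47600, listed as HSP14.2, stood at -0.37 and -0.44.

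The other 2 called genes of the small heat shock list were near the threshold. AT1G52560, listed as HSP26.5, had an interaction of 2.06 (limma adjusted p = 0.041), and ATHSP22.0, of the endoplasmic reticulum, had a rise strengthened from 1.13 to 2.51 (interaction 1.39, adjusted p = 0.0471). Their calls ended without 8 and 9 of the 12 arrays (adjusted p 0.0623 to 0.111). Both held without either divergent Col-0 array, and without gun1-101 lincomycin replicate 1, and AT1G52560 also without gun1-101 control replicate 1. Without both divergent Col-0 arrays, the adjusted p of ATHSP22.0 was 0.065. On lincomycin, gun1-101 replicate 1 gave the lowest of the 3 mutant values for both genes. Across the 12 fits with 1 array left out, between 1 and 6 genes of the list were called, with 6 without gun1-101 lincomycin replicate 1 and 5 without either divergent Col-0 array. AT1G54050, with the second largest interaction among the locus-tag genes that gained a rise, had responses of -0.53 and 2.34 (interaction 2.88, adjusted p = 0.0388). Its call ended without 9 of the 12 arrays (adjusted p 0.0663 to 0.101) and held without the same 3 arrays as ATHSP22.0. The 4 measured larger chaperones and heat shock regulators had no called interaction by limma (adjusted p 0.0673 to 0.916), with an unadjusted p under 0.05 for 1 of them, Hsp70-2 (interaction -1.09). It was called lower without Col-0 control replicate 1 or gun1-101 lincomycin replicate 2. Hsp70-2, a chaperone of the HSP70 family, stood at 6.22, 6.02 and 5.86 in the Col-0 controls and at 8.41, 8.22 and 8.29 in the gun1-101 controls, so that the genotypes already differed without lincomycin.

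Of 6 measured cold and dehydration genes 3 had a higher response in gun1-101 (4.01% of all genes did), and the median interaction was 1.59. COR15B, a cold-regulated protein of the chloroplast stroma, stood at 6.41, 5.10 and 5.65 in the Col-0 controls, at 4.15, 3.66 and 4.26 in Col-0 with lincomycin, at 6.83, 6.62 and 5.70 in the gun1-101 controls and at 8.91, 8.31 and 8.84 with lincomycin. The controls of both genotypes overlapped, and the lincomycin groups lay on opposite sides of them. A fall of 3.24-fold in Col-0 stood against a rise of 4.93-fold in gun1-101, the largest reversal from fall to rise (interaction 4.00, SE 0.49, limma adjusted p = 0.00107). Its close homologue COR15A gained a 3.04-fold rise (interaction 1.71, adjusted p = 0.0296). Such near-identical genes may share hybridisation, so their values may not be fully separate. KIN2 rose by 1.13 in Col-0 and by 3.03 in gun1-101 (interaction 1.90, adjusted p = 0.031). The calls of COR15A and KIN2 ended without 7 and 8 of the 12 arrays (adjusted p 0.057 to 0.082), and both held without either divergent Col-0 array, gun1-101 control replicate 1 or gun1-101 lincomycin replicate 2. LTI30, a dehydrin, had an interaction of 1.46 (adjusted p = 0.0541) and was called without either divergent Col-0 array. COR47, another dehydrin, had 0.84 (adjusted p = 0.158) and was called without Col-0 control replicate 1. KIN1, a homologue of KIN2, rose by 1.34 and by 1.18, with an interaction of -0.16 and a 95% interval from -0.95 to 0.62.

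Further gained rises reached several other processes. AT2G04070 stood at 5.81, 5.70 and 5.56 in gun1-101 with lincomycin and at 3.56 or less on all 9 other arrays (interaction 2.88, SE 0.25, limma adjusted p = 8.97e-05). UPB1, a transcription factor that controls peroxidases in roots, rose by 2.56 in gun1-101 against 0.58 in Col-0 (interaction 1.98). CYP71B26, a cytochrome P450, rose by 1.59 against -0.13 (interaction 1.72), and SWEET1, a glucose transporter, by 1.37 against -0.32 (interaction 1.69). The calls of UPB1, CYP71B26 and SWEET1 (adjusted p 0.0307 to 0.0416) ended without 9, 9 and 10 of the 12 arrays (adjusted p 0.0531 to 0.108). All 3 held without either divergent Col-0 array. UPB1 also held without gun1-101 lincomycin replicate 3 and CYP71B26 without gun1-101 control replicate 1. In the same order, the genotype difference of these 3 genes was -0.96, -0.73 and -0.66 in the controls. On lincomycin it was 1.02, 0.99 and 1.03 (limma adjusted p 0.0537 to 0.0776). Neither difference was called for any of them. AT2G27535, without a symbol, had the strongest interaction among strengthened rises, with 1.13 in Col-0 and 3.11 in gun1-101 (interaction 1.99, adjusted p = 0.00349).

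With all arrays, reversals were few (42 from fall to rise and 20 from rise to fall, of 1153 called genes), and most were small in at least 1 genotype. Without both divergent Col-0 arrays the counts were 767 and 440 of 5378 called genes, and with array weights 481 and 318 of 5536. Without any 1 of the arrays other than the divergent ones, they were 16 to 27 and 5 to 18. The small number of reversals thus depended on the divergent Col-0 arrays. AT2G29370 stood at 5.61, 5.95 and 5.91 in the Col-0 controls, at 3.19, 3.41 and 3.40 in Col-0 with lincomycin, at 6.20, 6.05 and 6.52 in the gun1-101 controls and at 7.62, 7.62 and 7.89 with lincomycin. No array of one lincomycin group came near the other, and the control groups lay between them. The response was -2.50 in Col-0 and 1.45 in gun1-101 (interaction 3.95, SE 0.22, limma adjusted p = 5.74e-06). ARLA1A, a small GTPase related to ADP-ribosylation factors, went from -0.89 to 0.57 (interaction 1.47). In the other direction, APL4, a large subunit of the starch enzyme ADP-glucose pyrophosphorylase, stood at 8.64, 8.08 and 7.98 in the Col-0 controls and at 9.54, 9.16 and 8.85 with lincomycin, and at 8.57, 8.57 and 8.49 in the gun1-101 controls and 8.09, 7.87 and 7.63 with lincomycin. Its response was 0.95 in Col-0 and -0.68 in gun1-101 (interaction -1.63, SE 0.29, adjusted p = 0.00897). AT3G45700 had 0.85 and -1.21 (interaction -2.06, adjusted p = 0.00245). scpl16, of the serine carboxypeptidase-like family, had 0.89 and -0.96 (interaction -1.85, adjusted p = 0.019), a call that was lost without Col-0 lincomycin replicate 2 (limma adjusted p = 0.0585). The genotype difference of scpl16 was 1.06 in the controls (limma adjusted p = 0.303) and -0.80 on lincomycin (adjusted p = 0.0914), and neither was called. With a response of at least 2-fold asked for in both genotypes, 5 of the 42 reversals from fall to rise and 0 of the 20 from rise to fall were left.

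**Figure D5:**
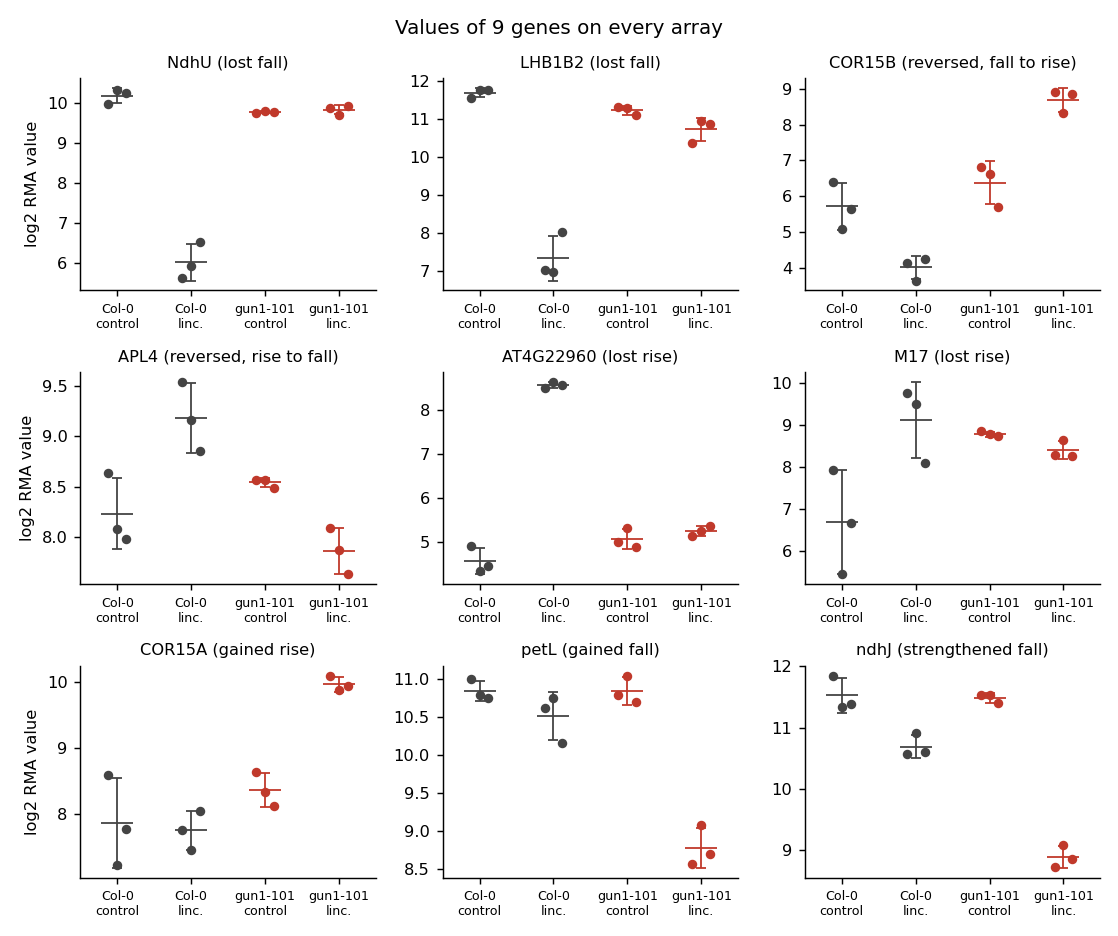
Values of 9 genes on each of the 12 arrays (log2 RMA, points), with the mean and SD of each group of 3, Col-0 in grey and gun1-101 in red; the vertical axes differ between panels and do not start at 0. NdhU and LHB1B2 are lowest in lincomycin-grown Col-0, COR15B moves in opposite directions, M17 has no rise in gun1-101, whose controls lie above the Col-0 controls, and petL and ndhJ are lowest in lincomycin-grown gun1-101.

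Of the 159 lost rises, the difference between the genotypes passed limma's test on lincomycin for 94 and in the controls for 1. AT4G22960 stood at 4.92, 4.34 and 4.47 in the Col-0 controls, at 8.51, 8.65 and 8.57 in Col-0 with lincomycin, at 5.01, 5.33 and 4.89 in the gun1-101 controls and at 5.14, 5.25 and 5.38 with lincomycin. Lincomycin-grown Col-0 lay above every other array. The 16.0-fold rise stood against 1.14-fold in gun1-101 (interaction -3.82, SE 0.23, limma adjusted p = 7.08e-06). AT5G03495 rose 17.1-fold in Col-0, against a log2 response of -0.23 in gun1-101 (interaction -4.33), although its gun1-101 controls (5.84 to 6.61) lay above its Col-0 controls (3.90 to 5.38, adjusted p = 0.189). chr31, a chromatin remodelling protein, rose by 1.80 in Col-0 with 0.02 in gun1-101 (interaction -1.78, adjusted p = 0.00222). SBT3.12, a subtilase, rose 2.90-fold in Col-0 against 1.02-fold in gun1-101 (adjusted p = 0.00349 for the interaction). AT4G05380 had the largest interaction among weakened rises, with responses of 3.93 and 0.72 (interaction -3.21). APL3, a large subunit of ADP-glucose pyrophosphorylase like APL4, rose by 1.24 in Col-0 with -0.65 in gun1-101 (interaction -1.89, adjusted p = 0.0225). The call of APL3 ended without Col-0 control replicate 2, Col-0 lincomycin replicates 1 or 2, gun1-101 control replicate 1 or gun1-101 lincomycin replicate 3 (adjusted p 0.0525 to 0.0663).

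M17, a late embryogenesis gene, stood at 7.93, 5.45 and 6.67 in the Col-0 controls, at 9.76, 9.50 and 8.08 in Col-0 with lincomycin, at 8.84, 8.77 and 8.72 in the gun1-101 controls and at 8.29, 8.64 and 8.25 with lincomycin. Both mutant groups lay above all Col-0 controls and within the range of lincomycin-grown Col-0. The genotype difference was 2.09 in the controls (limma adjusted p = 0.303) and -0.72 on lincomycin (adjusted p = 0.432), neither of which passed the test, and the interaction was -2.81 (SE 0.75, limma adjusted p = 0.045). AT2G21640, listed as UPOX and induced under mitochondrial stress, stood at 8.14, 5.56 and 6.22 in the Col-0 controls, at 9.44, 9.49 and 9.48 with lincomycin, at 9.06, 8.95 and 8.72 in the gun1-101 controls and at 9.25, 9.25 and 9.01 with lincomycin. Here too the mutant stood above the Col-0 controls with and without lincomycin, with a genotype difference in the controls of 2.27 (adjusted p = 0.235). The interaction was -2.57 (SE 0.66, limma adjusted p = 0.04). In both genes Col-0 control replicate 1 was the highest Col-0 control, and both calls held only without that array or without Col-0 lincomycin replicate 3. Without any 1 of the other 10 arrays the adjusted p was 0.0672 to 0.115. The third member of the mitochondrial list measured, NDB2, had an interaction of -0.72 (adjusted p = 0.056). AT5G09570, listed as AT12CYS-2, moved the other way, with -1.85 in Col-0 and -0.07 in gun1-101 (interaction 1.79, adjusted p = 0.0271). That call ended without 6 of the 12 arrays (adjusted p 0.055 to 0.0763), and held without Col-0 control replicates 1 or 3, Col-0 lincomycin replicate 3, gun1-101 control replicates 1 or 3 or gun1-101 lincomycin replicate 1.

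Part of the lincomycin response was measured in both genotypes. Of 485 genes called at least 2-fold lower by lincomycin in Col-0 (2.93% of all tested), 251 (51.8%) had a called interaction. Of 251 genes called at least 2-fold higher (1.52%), 75 (29.9%) did. For the mutant, 124 of 379 genes called at least 2-fold lower (2.29%) and 140 of 566 called at least 2-fold higher (3.42%) had one. These shares have no independent test, since the interaction contains each response. A response of at least 2-fold in the same direction in both genotypes was called for 109 falls and 65 rises. The 95% interval of the interaction lay within 2-fold in either direction for 46 of the 109 and for 18 of the 65, and for 57.6% of all tested genes. AT5G33370 had responses of -3.76 in Col-0 and -3.69 in gun1-101, with an interaction of 0.07 and an interval from -0.51 to 0.64. AT5G05250 had -3.23 and -3.15, with an interaction of 0.07 and an interval from -0.79 to 0.94.

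Iron deficiency genes fell in both genotypes. In the list of 4 measured genes, the median response was -3.51 in Col-0 and -2.56 in gun1-101. No interaction was called by limma (adjusted p 0.223 to 0.372), and none had an unadjusted p under 0.05. Without either divergent Col-0 array, 1 of the 4 was called higher. The median interaction of 0.90 moved to 1.54 without both divergent Col-0 arrays, with 3 of the 4 genes then called higher. AT1G47400, listed as the iron-regulated peptide gene IMA1, stood at 7.83, 9.39 and 8.84 in the Col-0 controls, at 4.03, 3.78 and 5.42 with lincomycin, at 7.62, 7.80 and 7.83 in the gun1-101 controls and at 4.52, 4.29 and 4.44 with lincomycin. In both genotypes the lincomycin arrays lay below all controls. The depth of these 2 responses could not be told apart at this spread (interaction 0.95, SE 0.58).

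Markers of single cell types were few. Of 4 measured stomatal genes 1 had a higher response in gun1-101 by limma, AT1G22690, listed as the guard cell marker GC1. The list median of the response was -0.73 in Col-0 and 0.21 in gun1-101. AT1G22690 stood at 8.81, 10.47 and 10.17 in the Col-0 controls, at 7.29, 7.65 and 8.61 with lincomycin, at 8.80, 8.68 and 8.69 in the gun1-101 controls and at 8.84, 9.20 and 9.28 with lincomycin. Its interaction of 2.35 (adjusted p = 0.0309) lost its call without any 1 of the 10 arrays other than the divergent Col-0 arrays (adjusted p 0.0547 to 0.0836). The stomatal lineage genes SPCH, MUTE and FMA had interactions of 0.57, 0.83 and 0.79 (adjusted p 0.0863 to 0.184). The 1 measured root marker, EXPA7, had 0.58 (adjusted p = 0.447) and was called higher without Col-0 control replicate 1, while the array median over the 7083 leading probe sets as a covariate turned it to -0.20. The part of cell composition in the results was not tested. Of 3 measured antioxidant genes all 3 were called higher, against 4.01% of all genes, with a median of 1.12. Besides TAPX these were AT3G11630, listed as the peroxiredoxin 2CPA (1.05), and SAPX, the stromal ascorbate peroxidase (1.12). Both calls held without either divergent Col-0 array, the first also without gun1-101 lincomycin replicate 1 and the second without gun1-101 lincomycin replicate 2. Without the other arrays the adjusted p was 0.0517 to 0.0804. The 4 reference genes had interactions of -0.40 to 0.61 and no call by limma (adjusted p 0.0834 to 0.667), with an unadjusted p under 0.05 for 2. Both were called higher without either divergent Col-0 array.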

How the data were processed

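Total RNA of whole seedlings was labelled with biotin and run on Affymetrix arrays, as the labels' protocols record. The authors deposited log2 values. Per the submitters' processing notes these are RMA (robust multi-array average) values from Expression Console 1.3. RMA equalises the arrays' distributions, so a shift shared by most transcripts would not be seen. Array design, background settings and batches were not stated in the sources used here, and no batch could be tested. The number of arrays limits the precision.

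Of 38408 probe sets, 16722 were paired with 1 gene, 759 with several and 20927 with none, and the last 2 kinds name no gene here. Names came from the platform annotation and a RefSeq gene table of TAIR10.1, which 16574 of the 16722 matched. Of 16550 genes, 1805 carried a symbol, and 63 were plastid-encoded and 17 mitochondrion-encoded, the latter identified by their symbols. Hand-written lists covered 341 loci, of which 80 were measured; where a gene has only a locus tag, its listed name is that of the hand-written list.

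Group means were fitted to all 12 arrays with limma 3.58.1 in R 4.3.3 (lmFit and eBayes, 8 residual degrees of freedom, median residual SD 0.22). Adjusted p-values are two-sided, by Benjamini-Hochberg over 16550 genes, and SE and 95% intervals are from this fit. The script was tested on simulated data with independent noise on each array. It called 47% of 100 added interactions of log2 1 and 88% of 100 of log2 2, with 13 calls among unchanged genes. A gene that was not called may therefore still differ by 2-fold. In each class, the text names the genes of largest interaction: 4 with a symbol and 2 without for lost and gained responses, 2 and 1 for the others, and members of described lists. The members and lists were chosen with earlier results of these data known. Whether same-numbered replicates pair was checked by the correlation of their deviations from group means. It ranged from -0.30 to 0.44 and exceeded 0.1 in 7 of 18 pairs, so the numbers were not used as pairs. Alternatives were a replicate block, array weights, an array covariate (the median over 7083 probe sets), other scalings, probe set choices and variance models, a filter on dim genes, and arrays left out singly, or both divergent Col-0 arrays together. Promoter motifs and sequences were not analysed here.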

Additional observations from a re-analysis of the deposited data

Results flagged for a closer look

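The lincomycin response differed between the 2 genotypes for 1153 genes by the interaction term of the limma fit, which tests the difference itself. The genes named from each class by size carry the following interactions on the log2 scale. Lost falls were NdhU at 4.22, LHB1B2 at 3.85, LHCB4.2 at 3.57, TRY at 3.07, AT2G34620 at 5.04 and AT4G22513 at 4.89. Lost rises were M17 at -2.81, APL3 at -1.89, chr31 at -1.78, SBT3.12 at -1.50, AT5G03495 at -4.33 and AT4G22960 at -3.82. Gained falls were rps14 at -1.80, SCPL15 at -1.75, petL at -1.73, NET1D at -1.67, AT3G04330 at -2.83 and AT4G36230 at -2.81. Gained rises were UPB1 at 1.98, CYP71B26 at 1.72, COR15A at 1.71, SWEET1 at 1.69, AT2G04070 at 2.88 and AT1G54050 at 2.88.

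Reversals from fall to rise were COR15B at 4.00, ARLA1A at 1.47 and AT2G29370 at 3.95, and from rise to fall scpl16 at -1.85, APL4 at -1.63 and AT3G45700 at -2.06. Weakened falls were PORB at 2.44, ATSPS4F at 2.04 and AT1G21500 at 4.35, and the weakened rise was AT4G05380 at -3.21. Strengthened falls were ndhJ at -1.76, psbM at -1.53 and AT3G20362 at -1.87, and strengthened rises were KIN2 at 1.90, ATHSP22.0 at 1.39 and AT2G27535 at 1.99. Groups of 3 arrays are too small for a test of single outlying arrays.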

How the results depend on the processing

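No gene called in the interaction had the opposite sign in the fits that tested it, and no median of a list with at least 3 measured genes changed sign. The 1 root marker measured, EXPA7, went from 0.58 to -0.20 with the array covariate. The number of calls depended on the arrays and settings; the cause was not tested, except that each fit with fewer arrays also has fewer residual degrees of freedom. Leaving out 1 array gave 379 to 3876 interaction genes, 146 to 624 lost falls, 42 to 751 lost rises, 65 to 694 gained falls, 48 to 915 gained rises, 16 to 162 reversals from fall to rise and 5 to 120 from rise to fall. In the same order, array weights gave 5536, 768, 1175, 997, 1141, 481 and 318, and leaving out both divergent Col-0 arrays, the control numbered 1 and the lincomycin array numbered 3, gave 5378, 738, 1172, 802, 878, 767 and 440. The array weights were lowest for these 2 arrays (0.272 and 0.376). The array covariate gave 525 interaction genes, 199 lost falls, 61 lost rises, 94 gained falls and 65 gained rises. Leaving out dim genes gave 1751 interaction genes of 8952 tested, with 265 lost rises, 378 gained rises and 31 reversals from rise to fall. Testing every probe set gave 515 lost falls and 63 reversals from rise to fall. An interaction of at least 2-fold left 763 genes, 96 lost rises and 127 gained falls. In another setting, a response under 2-fold counted as not called, so that a gene could change class. It gave 69 lost rises, 107 gained falls, 129 gained rises, 5 reversals from fall to rise and 0 from rise to fall.

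With the replicate block 1368 genes were called, 1049 of them shared with the 1153, and 31 reversals from rise to fall. Deviations correlated above 0.1 in 7 of 18 same-numbered pairs and in 7 of 36 others, and 6 of 12 arrays correlated best with their own number, so the numbers were not taken as pairs. A random block (1308 genes), a shift to 1 median (1134), repeated quantile normalisation (1234) and a trended robust prior (1462) changed the count less. The share of calls with the higher response in gun1-101 was 57.6%, 65.3% with the covariate, 48.2% with array weights and 49.2% without both divergent arrays. The 40 named genes kept direction and call in 344 combinations with these other settings and in 394 with 1 array left out, and kept direction but lost the call in 11 and 86. No group mean of chr31, AT2G04070, CYP71B26, ATHSP22.0 or scpl16 reached the limit for dim genes (6.65). These genes were therefore not tested in the fit that left out dim genes. With the covariate, 18 of the 33 nuclear genes for plastid functions and 7 of the 63 plastid genes were called, and without both divergent arrays 31 and 48. The 3 arrays per group limit what can be called near the threshold.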

Other observations

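Probe sets without a listed gene carried interaction calls as well. When all 38408 probe sets were tested together with limma, 1519 (3.955%) were called, 867 with a higher and 652 with a lower response in gun1-101. Of the 7083 probe sets that precede the first annotated one in the table, 143 (2.02%) were called, 11 higher and 132 lower. The array median over this block itself differed between the groups, as given above. Of the 13844 other probe sets without a listed gene, 676 (4.88%) were called, 426 higher and 250 lower. These probe sets are unnamed here.

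Among genes called in the interaction and not singled out by size, several carry symbols of plastid proteins. They were chosen after their values were seen and support no statement on their group. PIFI and NdhN, both tied to the NDH complex, had interactions of 2.50 and 1.84. PSB27, an assembly factor of photosystem II, had 1.77, and SECE1, of the thylakoid protein translocase, had 1.62. Z-ISO, a carotenoid isomerase, had 1.48. Outside the plastid proteins, STOMAGEN, a peptide that promotes stomatal development, was picked in the same way. Its interaction was 1.59, a call that held in 5 of the 12 fits with 1 array left out.

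Of the gained falls, 4 more genes were picked after their values were seen and stand for no group. TUB1, a beta tubulin, had an interaction of -1.19 and TMT1, a sugar transporter of the vacuole, -1.12, both called in all 12 of those fits. NET1A and NET1B had -1.07 and -1.21 and were called in 3 and 2 of the 12.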
